A study of Homo sapiens with 4 samples.

Results

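The genes described here are 4 genes of the ID family (ID1, ID2, ID3 and ID4) and 6 genes of bone morphogenetic protein (BMP) signalling: the ligand gene BMP4, the receptor genes BMPR1A and BMPR2, and the SMAD genes SMAD1, SMAD5 and SMAD6. They were taken by symbol from a deposited table of 20263 genes, and all 10 were found and tested among 13816 genes that passed a filter on low counts. Their messenger RNA was measured in MDA-MB-231, an established and much used human breast cancer line (triple-negative, of mesenchymal character), grown in medium with 10% fetal bovine serum. Cells received YW-LF, which the series title calls derived from ribociclib, a drug that inhibits CDK4 and CDK6. YW-LF was given for 24 h (2 libraries), and the control group is labelled DMSO, the solvent (2 libraries). The sources used here do not give the dose. The labels name no separate cultures or dates, so the p-values reflect only how far these libraries differ, which may be technical.

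BMPs are secreted ligands that bring type I receptors such as BMPR1A together with a type II receptor such as BMPR2. The type I receptor then phosphorylates SMAD1 and SMAD5, which join SMAD4 and enter the nucleus. The ID genes are the best known direct targets of this complex, and SMAD6 is induced by it as a feedback inhibitor. ID proteins carry a helix-loop-helix domain without a DNA-binding region, so they bind E proteins and keep them off DNA. They are known for holding cells in a proliferating, undifferentiated state, and in breast cancer ID1 and ID3 have been tied to metastatic growth.

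The promoters of the 3 genes with the lowest values after YW-LF relative to DMSO (BMP4, ID1 and SMAD6) and of ID3, whose groups overlapped, are shown as the 250 bases before the transcription start in RefSeq (GRCh38.p14), 5′ to 3′ on the gene's strand. Capitals mark the GC-rich SMAD1/5 elements GGCGCC and GGAGCC, the latter searched with its reverse complement GGCTCC. BMP4 has 3 starts in the table, and the one shown is listed first.
ID1, chr20:31605039-31605288, plus strand: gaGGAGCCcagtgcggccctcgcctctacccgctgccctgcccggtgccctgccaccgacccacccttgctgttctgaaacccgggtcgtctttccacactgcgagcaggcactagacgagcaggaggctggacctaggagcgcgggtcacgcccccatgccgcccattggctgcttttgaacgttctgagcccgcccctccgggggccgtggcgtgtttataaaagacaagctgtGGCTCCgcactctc
SMAD6, chr15:66701986-66702235, plus strand: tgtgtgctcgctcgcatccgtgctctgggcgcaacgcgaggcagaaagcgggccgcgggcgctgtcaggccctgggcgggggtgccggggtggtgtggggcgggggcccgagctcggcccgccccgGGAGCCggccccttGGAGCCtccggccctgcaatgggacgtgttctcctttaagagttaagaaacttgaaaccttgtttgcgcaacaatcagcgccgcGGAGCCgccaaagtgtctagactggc
BMP4, chr14:53955051-53955300, minus strand: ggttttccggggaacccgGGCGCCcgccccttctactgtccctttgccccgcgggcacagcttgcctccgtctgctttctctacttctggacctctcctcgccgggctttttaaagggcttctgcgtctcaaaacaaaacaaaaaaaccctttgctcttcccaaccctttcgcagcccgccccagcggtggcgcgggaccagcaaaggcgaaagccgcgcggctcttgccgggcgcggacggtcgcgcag
ID3, chr1:23559502-23559751, minus strand: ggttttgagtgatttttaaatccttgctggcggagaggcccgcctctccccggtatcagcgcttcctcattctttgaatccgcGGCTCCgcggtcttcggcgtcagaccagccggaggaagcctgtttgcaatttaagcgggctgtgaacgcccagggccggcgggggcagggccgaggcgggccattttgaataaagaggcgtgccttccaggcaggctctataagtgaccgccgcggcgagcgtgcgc
The ID1 window held 2 matches to GGAGCC, the SMAD6 window 3 and the ID3 window 1, and the BMP4 window held 1 match to GGCGCC. Among 35116 promoter windows of the same length, 30.6% held GGAGCC and 16.4% held GGCGCC. The short motif CAGAC, known as a site for other SMADs, was also searched (with its reverse complement GTCTG), is not shown in capitals and was in 38.0% of them. Of the 10 windows listed first, 1 for each gene, 6 held GGAGCC, 2 held GGCGCC and 4 held CAGAC. All 16 windows of the 10 genes include 5 of SMAD1 and 3 of BMP4, and 1 pair of SMAD1 windows overlaps. Of these 16 windows, 10 held GGAGCC (15 matches at 14 distinct sites, since 1 SMAD1 site lies in both overlapping windows), 4 held GGCGCC and 6 held CAGAC. The matches describe these letters only. Neither binding nor methylation was measured.

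Total counts were between 34774542 and 40218240 per library. Levels are given as CPM (counts for each gene after all libraries are brought to the same total) with trimmed mean of M-values (TMM) factors. These rescale the total of each library, by 0.838 (YW-LF replicate 2) to 1.25 (YW-LF replicate 1). Of all counts, 8.68% (replicate 1) and 21.7% (replicate 2) of those in DMSO came from mitochondrially encoded genes, against 3.14% and 6.58% of those in YW-LF. Over all genes tested, the SD of the log2 ratio between replicates was 0.56 for DMSO and 1.20 for YW-LF, the wider pair. Markers of the line were present in all 4 libraries: vimentin (VIM) stood at 2122 CPM or more and CD44 at 400 CPM or more, and SPARC, listed with them, did not exceed 1.01 CPM. Of the 6 markers listed as present, 5 (VIM, CD44, AXL, CAV1 and KRT18) lay below both controls in both YW-LF libraries. With library size only, 4 did, as CD44 overlapped. Among all genes tested, 27.8% lay below in this way, and 21.2% with library size only. CAV1 was at 575 CPM in both DMSO libraries and 134 and 320 CPM with YW-LF, and KRT18 at 219 and 304 CPM with DMSO and 70.3 and 152 CPM with YW-LF (unadjusted p 0.0448 and 0.0440, adjusted p 0.236 and 0.235 in edgeR). Of 5 markers listed as low in the line, CDH1 (E-cadherin), ESR1 and PGR did not exceed 1.73 CPM. The other two were present: ERBB2 at 71.9 and 64.3 CPM with DMSO and 69.2 and 30.2 CPM with YW-LF, and EPCAM at 5.53 to 9.35 CPM. Leukocyte markers summed to 0.291 to 1.08 CPM, with CD3E at 0. Fibroblast markers summed to 9.96 and 9.86 CPM with DMSO and 8.58 and 2.23 CPM with YW-LF, with COL1A2 and DCN at 0. Most came from COL1A1 (6.97 and 7.92 CPM with DMSO, 6.55 and 0.486 CPM with YW-LF) and PDGFRB (1.33 to 2.67 CPM). Endothelial markers summed to 7.34 and 6.63 CPM with DMSO and 3.96 and 3.56 CPM with YW-LF, with PECAM1 at 0.687 to 1.09 CPM with DMSO and 0.162 to 0.418 CPM with YW-LF, the rest from KDR, and CDH5 at 0. The part of these markers in the results was not tested.

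In cells given YW-LF, BMP4, ID1 and SMAD6 had the lowest levels relative to DMSO, 6.26-fold to 10.98-fold lower, whereas ID2, ID3 and SMAD5 differed by less than 1 standard error (SE) of their fold change. For 8 of the 10 genes both treated libraries lay under both controls (BMP4, BMPR1A, BMPR2, SMAD1, SMAD5, SMAD6, ID1 and ID2), for ID4 both lay above, and for ID3 the groups overlapped. Over all genes tested, 27.8% lay below and 28% above in this way. With CPM scaled by library size only, 4 of the 10 lay below (BMP4, SMAD1, SMAD6 and ID1; 21.2% of all genes tested), ID4 lay above (28.7% of all genes tested), and the other 5 overlapped. The median log2 fold change was -0.95 over the 10 genes and 0.063 over all genes tested. No gene passed the test after adjustment: the quasi-likelihood test of edgeR, with p-values adjusted by Benjamini-Hochberg over 13816 genes, called 0 of the 10, where it called 0% of all genes. At an unadjusted p under 0.05 in edgeR, 3 of the 10 were lower (BMP4, ID1 and SMAD6) and 0 higher, against 9.01% and 11.5% of all genes tested. DESeq2 called 2 of the 10 lower (BMP4 and ID1) and 0 higher, against 4.58% and 6.02% of all genes, and limma-voom called 0. In bulk RNA, fewer cells that express a gene and less of its RNA per cell cannot be told apart. An exact permutation test on 2 against 2 libraries cannot give a p below 0.333.

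**Figure D1:**
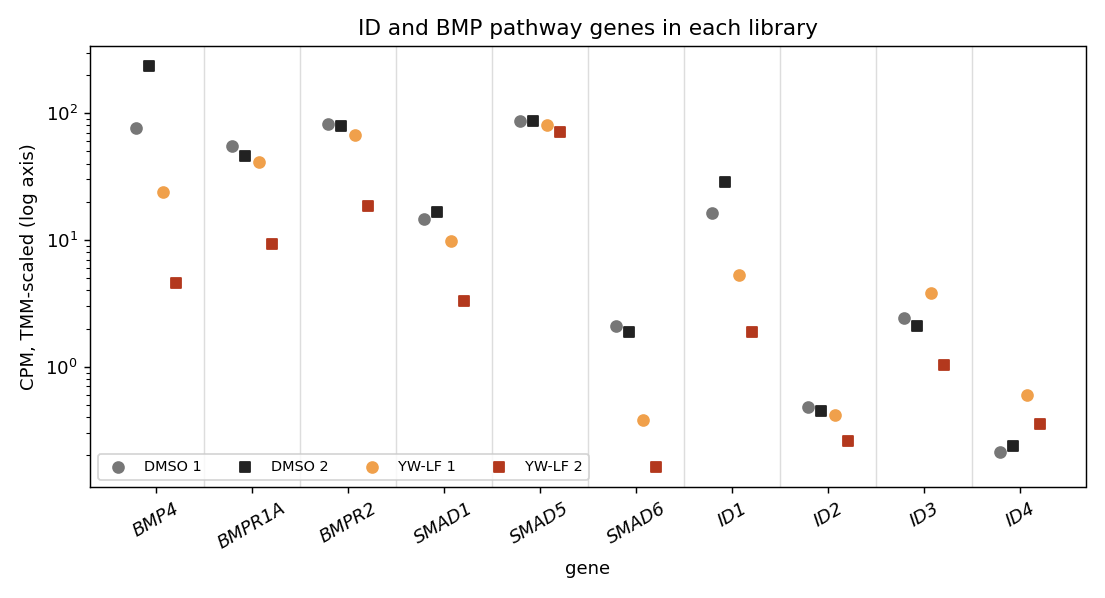
Level of each of the 10 genes in each library, in TMM-scaled CPM on a log axis (grey and black, DMSO replicates 1 and 2; orange and red, YW-LF replicates 1 and 2; circles, replicate 1; squares, replicate 2). For BMP4, SMAD6 and ID1 both YW-LF points sit well below both DMSO points, and the red square of YW-LF replicate 2 is below the orange circle in all 10 genes.

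BMP4, the secreted ligand (ENSG00000125378; chromosome 14, 53949736 to 53958761 in GRCh38, GENCODE 29), was at 75.8 and 235 CPM in the DMSO libraries and at 23.7 and 4.56 CPM in the YW-LF libraries. The groups did not overlap, but each group was wide: DMSO replicate 2 was 3.10-fold above DMSO replicate 1, and YW-LF replicate 1 was 5.18-fold above YW-LF replicate 2. The log2 fold change was -3.46 (SE 0.91), with an adjusted p of 0.136 in edgeR and 0.000107 in DESeq2. It was the lowest fold change of the 10, at percentile 0.351 of all genes tested. With 1 library left out, BMP4 passed in edgeR without DMSO replicate 1 (-4.04, adjusted p 0.000936), without YW-LF replicate 1 (-5.09, 0.00132) and also without YW-LF replicate 2 (-2.73, 0.0291). It did not pass when DMSO replicate 2 was left out (-2.44, 0.156). With 3 libraries the spread comes from the pair that remains. The share of all genes called lower ranged from 0.111% without DMSO replicate 2 to 20.7% without YW-LF replicate 1. BMP4 was highest in DMSO replicate 2, the library with the largest mitochondrial share, as was ID1, and whether the share had a part in this was not tested.

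The receptor genes were lower mainly in YW-LF replicate 2. BMPR1A, the type I receptor (ENSG00000107779; chromosome 10, 86756601 to 86932838), was at 55.0 and 45.9 CPM with DMSO and at 41.3 and 9.26 CPM with YW-LF. BMPR2, the type II receptor (ENSG00000204217; chromosome 2, 202376936 to 202567751), was at 81.3 and 78.5 CPM with DMSO and at 67.3 and 18.6 CPM with YW-LF. YW-LF replicate 1 was thus just below the DMSO range for both genes, and replicate 2 was 4.46-fold and 3.61-fold below replicate 1. The log2 fold changes were -0.995 (SE 0.67) for BMPR1A and -0.89 (SE 0.60) for BMPR2, with adjusted p of 0.433 and 0.431 in edgeR. Without YW-LF replicate 1 they were -2.45 and -2.10 and passed (adjusted p 0.000882 and 0.00118 in edgeR). Without YW-LF replicate 2 they were -0.30 and -0.26 (0.454 and 0.499).

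Of the SMADs that carry the signal, SMAD5 (ENSG00000113658; chromosome 5, 136132845 to 136188747) had the smallest SE of the 10 genes and stood at 86.8 and 86.6 CPM with DMSO and 81.0 and 71.0 CPM with YW-LF. Its log2 fold change was -0.19 (SE 0.34, edgeR adjusted p = 0.781). SMAD1 (ENSG00000170365; chromosome 4, 145481194 to 145558079) is also phosphorylated by the type I receptor. It was at 14.6 and 16.7 CPM with DMSO and 9.79 and 3.30 CPM with YW-LF. Both treated libraries were below the controls for SMAD1 under either scaling, and the log2 fold change was -1.25 (SE 0.59), with an adjusted p of 0.288 in edgeR. SMAD1 passed without YW-LF replicate 1 (-2.24, adjusted p 0.00175 in edgeR) and not without YW-LF replicate 2 (-0.68, 0.132). The difference between the fold changes of SMAD1 and SMAD5 was not tested.

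SMAD6, the inhibitory SMAD that blocks BMP receptors and SMAD1 (ENSG00000137834; chromosome 15, 66702228 to 66782848), was at 2.11 and 1.88 CPM with DMSO and 0.378 and 0.162 CPM with YW-LF. These rest on 79 and 63 counts in DMSO and on 19 and 5 counts in YW-LF, so counting error is large in the treated libraries. The DMSO libraries were close together, and both YW-LF libraries were far below them. SMAD6 passed the filter on low counts through the DMSO libraries, the group in which it was higher. It was not tested where a minimum count was required in all libraries. Whether this had a part in its low values was not tested. The log2 fold change was -2.84 (SE 0.80), with an adjusted p of 0.146 in edgeR and 0.0512 in DESeq2. In edgeR SMAD6 passed without YW-LF replicate 1 (-3.60, adjusted p 0.00646) and also without YW-LF replicate 2 (-2.40, 0.0370), but not without DMSO replicate 1 (-2.75, 0.749) or DMSO replicate 2 (-2.95, 0.792). Its fold change moved less than those of BMP4 and ID1 when a library was left out.

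Among the ID genes, ID1 differed most. ID1 (ENSG00000125968; chromosome 20, 31605283 to 31606515) was at 16.3 and 28.7 CPM with DMSO and 5.27 and 1.88 CPM with YW-LF. The groups did not overlap, and each group spread 1.76-fold (DMSO) or 2.81-fold (YW-LF) within itself. The log2 fold change was -2.65 (SE 0.64), with an adjusted p of 0.126 in edgeR and 0.000937 in DESeq2. In edgeR it was -3.58 without YW-LF replicate 1 (adjusted p 0.000900) and -2.10 without YW-LF replicate 2 (0.0171), and it did not pass without DMSO replicate 1 (-2.98, 0.131) or DMSO replicate 2 (-2.20, 0.631).

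ID3 (ENSG00000117318; chromosome 1, 23557918 to 23559794), often induced together with ID1 by BMPs, was at 2.43 and 2.09 CPM with DMSO and 3.78 and 1.04 CPM with YW-LF. One treated library was above the controls and the other below, on 190 and 32 counts, and the log2 fold change was 0.097 (SE 0.78, edgeR adjusted p = 0.953). Its sign was negative in limma-voom (-0.10), without DMSO replicate 2 (-0.023) and when YW-LF replicate 1 was left out (-1.13), and no fit called it. ID2 (ENSG00000115738; chromosome 2, 8678845 to 8684453) was at 0.481 and 0.448 CPM with DMSO and 0.418 and 0.259 CPM with YW-LF (8 to 21 counts), and its log2 fold change was -0.44 (SE 0.81). ID4 (ENSG00000172201; chromosome 6, 19837386 to 19840684) was the only gene of the 10 above the controls in both treated libraries. It was at 0.214 and 0.239 CPM with DMSO and 0.597 and 0.356 CPM with YW-LF. ID4 had 8 counts in each DMSO library and passed the filter through the YW-LF libraries, with 30 and 11 counts. Its log2 fold change was 1.07 (SE 0.85). Neither ID2 nor ID4 passed (edgeR adjusted p 0.788 and 0.504), and in this fit no gene did. Whether the low counts of ID2 and ID4 had a part in this was not tested.

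Compared per length of exons (TMM-scaled CPM per kilobase of GENCODE 29 exons), the order of mean levels differed between DMSO and YW-LF, at its top and further down. In DMSO the mean level ran from BMP4 (50.4) through ID1 (18.2), SMAD5 (9.59), BMPR2 (6.72), BMPR1A (4.42), SMAD1 (2.58), ID3 (1.26), SMAD6 (0.233) and ID2 (0.211) to ID4 (0.0966). BMP4 was above ID1 in each DMSO library, with 24.6 against 13.2 in replicate 1 and 76.3 against 23.3 in replicate 2. SMAD6 and ID2 were closer, with 0.246 against 0.218 in replicate 1 and 0.220 against 0.203 in replicate 2. In YW-LF SMAD5 was highest (8.41), followed by BMP4 (4.58), BMPR2 (3.61), ID1 (2.90), BMPR1A (2.22), ID3 (1.34) and SMAD1 (1.08). The order from BMPR2 to SMAD1 was the same within each YW-LF library, and only the place of BMP4 changed. BMP4 was above BMPR2 in replicate 1 (7.68 against 5.65) and below ID1 in replicate 2 (1.48 against 1.52). ID4 (0.203), ID2 (0.153) and SMAD6 (0.0315) came last. ID1 was the most abundant ID gene per length in each of the 4 libraries.

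All 10 genes were lower in YW-LF replicate 2 than in YW-LF replicate 1, by 1.14-fold (SMAD5) to 5.18-fold (BMP4). Over all genes tested, 50.5% were lower in replicate 2. The median log2 ratio of replicate 2 to replicate 1 was -1.49 for the 10 genes and -0.013 for all genes tested. The genes were chosen with earlier results of these libraries known, so nothing particular to them is read from this. The 3 genes with the lowest fold changes were below both controls in either treated library, whereas the low values of BMPR1A and BMPR2 came from replicate 2. BMP4, SMAD6 and ID1 were singled out by their fold changes in the same libraries. That both treated libraries lay below the controls for them is thus a description and no further support. With 1 library left out, edgeR called 6 of the 10 lower without YW-LF replicate 1 (BMP4, BMPR1A, BMPR2, SMAD1, SMAD6 and ID1), 3 without YW-LF replicate 2 (BMP4, SMAD6 and ID1), 1 without DMSO replicate 1 (BMP4) and 0 without DMSO replicate 2. The same fits called 20.7%, 10.2%, 0.194% and 0.111% of all genes tested lower, and 21%, 10.1%, 0.318% and 0.332% higher.

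**Figure D2:**
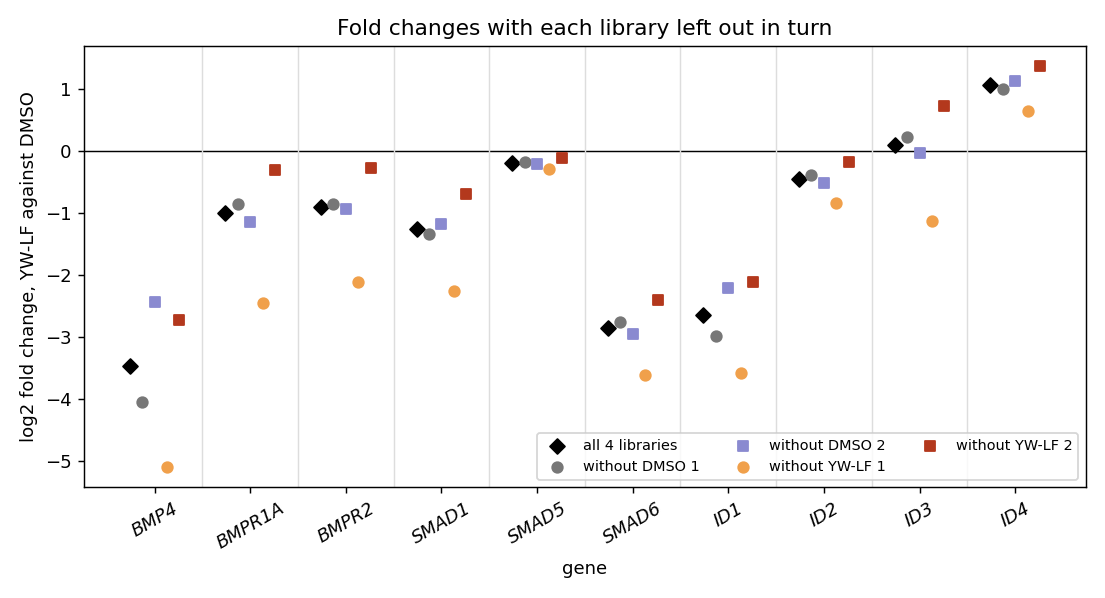
Log2 fold change of each gene, YW-LF against DMSO, with all 4 libraries (black diamonds) and with each library left out in turn (edgeR). BMP4, SMAD6 and ID1 stay at -2.10 or below in every fit, while BMPR1A and BMPR2 move between about the level of the controls and below -2, depending on which YW-LF library is left out. BMP4, SMAD6 and ID1 were singled out by their low fold changes in the same libraries.

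The 3 genes whose pattern over the 4 libraries was nearest to that of ID1, by Euclidean distance of centred log2 CPM among 9625 genes with a mean of at least 10 CPM, were SFN (distance 0.18), ANGPTL2 (0.22) and NFIX (0.28). SFN, which encodes 14-3-3 sigma, was at 128 and 216 CPM with DMSO and 35.2 and 13.7 CPM with YW-LF. With 4 libraries the distance is a description only. In the same libraries the proliferation marker MKI67 was at 1369 and 1494 CPM with DMSO and 220 and 232 CPM with YW-LF, so it differed little between the treated libraries. CDKN1A, the CDK inhibitor p21 whose gene E proteins can activate, was at 33.8 and 18.7 CPM with DMSO and 167 and 115 CPM with YW-LF.

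Beyond the 10 genes, 67 further genes of the pathway were listed by role, and 46 were tested. Adjusted over all genes, 0 passed in edgeR; at an unadjusted p under 0.05, 5 were higher and 7 lower, together 26.1% against 20.5% of all genes tested. DESeq2 called 3 higher and 4 lower, where it called 6.02% and 4.58% of all genes. Groups did not overlap for 54.3% of the 46 (10 above, 15 below), against 55.8% of all genes tested. The 7 genes that DESeq2 called were ACVR1, NOG, BAMBI, SMURF1, SMURF2, TOB1 and GATA3. Each kept the sign of its fold change in edgeR when any library was left out. They were picked by a fit to the same libraries, so this is a description and no further support. In all, edgeR called 27 of 46 pathway genes tested without YW-LF replicate 1 (7 higher, 20 lower), where it called 41.7% of all genes, and 9 of 49 without YW-LF replicate 2 (5 higher, 4 lower), against 20.3%. It called 0 without either DMSO library, where 0.512% (replicate 1) and 0.443% (replicate 2) of all genes were called. With 1 library left out, log2 fold changes in edgeR ran from -9.04 to -0.97 for BMP6 and from -4.68 to -0.82 for BMPER. They ran from -1.27 to -0.75 for RGMB and from -1.92 to -0.98 for GATA2. The range was 1.19 to 2.16 for GDF7 and 1.60 to 2.12 for HEY1. Values for SMAD7 and SMAD9 are given below.

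Of 13 further ligand genes 6 were tested, and 0 were called in edgeR, with 0 at an unadjusted p under 0.05. BMP2, the ligand closest to BMP4 in sequence, was at 4.78 and 3.71 CPM with DMSO and 15.7 and 5.89 CPM with YW-LF, a log2 fold change of 1.35 (SE 0.62, edgeR adjusted p = 0.274). Its direction was thus the opposite of that of BMP4, and it was 1.88 without YW-LF replicate 2 (adjusted p 0.0118 in edgeR) but 0.47 without YW-LF replicate 1 (0.368), the library in which BMP2 was highest. GDF7, another BMP-family ligand, was at 0.641 and 0.389 CPM with DMSO and 1.19 and 2.30 CPM with YW-LF. BMP6 was at 1.68 and 2.18 CPM with DMSO and 0.995 CPM in YW-LF replicate 1, with 0 counts in YW-LF replicate 2, which allows up to 0.0971 CPM (3 counts).

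Of 9 further receptors and co-receptors 8 were tested. ACVR1 (the type I receptor ALK2) was at 36.2 and 31.9 CPM with DMSO and 115 and 108 CPM with YW-LF. Both treated libraries were far above both controls, and they were close to each other. The log2 fold change was 1.71 (SE 0.35), opposite in sign to BMPR1A, with an adjusted p of 0.121 in edgeR and 0.00282 in DESeq2. RGMB, a BMP co-receptor, was at 166 and 138 CPM with DMSO and 91.4 and 63.2 CPM with YW-LF (-0.98, SE 0.38). BMPR1B, another type I receptor, was at 5.13 and 7.02 CPM with DMSO and 4.97 and 2.75 CPM with YW-LF. At an unadjusted p under 0.05 in edgeR, ACVR1 was higher and RGMB lower, against 11.5% and 9.01% of all genes, and 0 of the 8 were called.

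The other SMADs overlapped between the groups. SMAD4, the common partner of SMAD1 and SMAD5, was at 36.2 and 49.97 CPM with DMSO and 34.2 and 37.2 CPM with YW-LF. SMAD9, also a BMP-responsive SMAD, was at 6.14 and 6.99 CPM with DMSO and 6.33 and 1.65 CPM with YW-LF. SMAD7, an inhibitor of both BMP and TGF-beta receptors, was at 7.88 and 13.7 CPM with DMSO and 18.0 and 2.65 CPM with YW-LF, the widest spread between treated libraries of the 3. SMAD7 and SMAD9 passed in edgeR without YW-LF replicate 1 (-2.02 and -1.99, adjusted p 0.00902 and 0.00774), and without YW-LF replicate 2 they stood at 0.72 and -0.065 (0.190 and 0.904).

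NOG, which encodes the secreted BMP antagonist noggin and is itself induced by BMPs, had the lowest fold change among 7 tested of 14 antagonist genes. It was at 18.3 and 18.1 CPM with DMSO and 3.46 and 1.59 CPM with YW-LF. The controls were nearly equal and both treated libraries lay far below them (log2 fold change -2.84, SE 0.55). Its adjusted p was 0.121 in edgeR, 0.0401 in edgeR without a count filter and 7.56e-05 in DESeq2. With 1 library left out, the log2 fold change of NOG in edgeR ran from -3.52 to -2.40. BAMBI, a membrane pseudo-receptor that dampens BMP and TGF-beta signals, was at 6.997 and 9.20 CPM with DMSO and 21.0 and 24.2 CPM with YW-LF (1.48, SE 0.41; adjusted p 0.141 in edgeR and 0.0329 in DESeq2). BMPER, a secreted BMP-binding protein, was at 1.90 and 1.58 CPM with DMSO and 0.995 and 0.0647 CPM with YW-LF, the last from 2 counts. At an unadjusted p under 0.05 in edgeR, BAMBI was higher, NOG was lower and no other antagonist passed, against 11.5% higher and 9.01% lower among all genes.

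The 2 SMURF ubiquitin ligases, which mark BMP SMADs and receptors for degradation, had fold changes of opposite sign. SMURF1 was at 38.7 and 40.4 CPM with DMSO and 79.6 and 172 CPM with YW-LF (log2 fold change 1.66, SE 0.46). SMURF2 was at 407 and 283 CPM with DMSO and 85.0 and 158 CPM with YW-LF (-1.51, SE 0.48). TOB1, an antiproliferative protein that restrains BMP SMADs, was at 40.8 and 59.2 CPM with DMSO and 22.0 and 8.90 CPM with YW-LF (-1.69, SE 0.53). None of the 3 passed in edgeR (adjusted p 0.144, 0.172 and 0.165), and DESeq2 called each (0.0173, 0.0329 and 0.0292). With 1 library left out, log2 fold changes in edgeR ran from -2.49 to -1.20 for TOB1 and from 0.996 to 2.11 for SMURF1. For SMURF2 they ran from -2.03 to -1.13. All 13 regulators listed were tested: 2 were higher and 2 lower at an unadjusted p under 0.05 in edgeR, where 11.5% and 9.01% of all genes were.

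Of 12 other textbook target genes 7 were tested, with 1 higher and 3 lower at an unadjusted p under 0.05 in edgeR, against 11.5% and 9.01% of all genes, and 0 called. The transcription factor gene GATA3, which marks luminal breast cells, was at 9.03 and 21.4 CPM with DMSO and 3.08 and 4.01 CPM with YW-LF (-2.10, SE 0.58; adjusted p 0.142 in edgeR and 0.0108 in DESeq2). GATA3 moved to -1.36 without DMSO replicate 2 (adjusted p 0.989 in edgeR) and to -2.58 without DMSO replicate 1 (0.311). GATA2 was at 16.7 and 16.5 CPM with DMSO and 8.46 and 4.40 CPM with YW-LF (-1.37, SE 0.49). HEY1, which Notch also induces, was at 1.12 and 0.956 CPM with DMSO and 3.18 and 4.53 CPM with YW-LF (1.89, SE 0.63), the opposite direction. The tested targets thus had fold changes of both signs, with a median log2 fold change of -0.69 over the 7 tested.

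Of the E proteins that ID proteins bind, TCF3 (E2A) was at 86.5 and 86.3 CPM with DMSO and 52.4 and 58.9 CPM with YW-LF, and TCF12 (HEB) was at 71.4 and 61.5 CPM with DMSO and 66.6 and 40.1 CPM with YW-LF. Both treated libraries were below the controls for TCF3 (-0.63, SE 0.34), whereas TCF12 overlapped (-0.32, SE 0.39). Neither passed in edgeR (adjusted p 0.330 and 0.677). TCF4 had 0 counts in 3 libraries and 2 counts in YW-LF replicate 1 and was not tested.

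**Figure D3:**
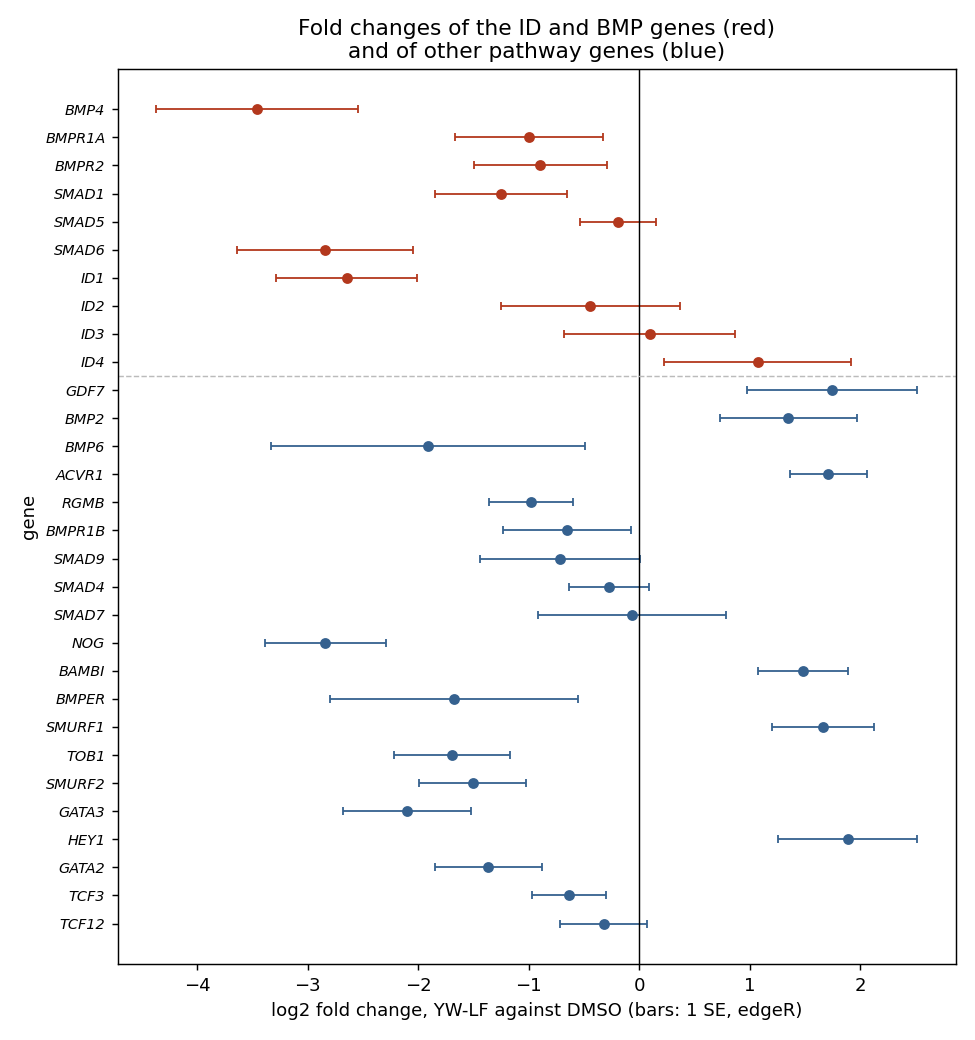
Log2 fold change of YW-LF against DMSO for the 10 ID and BMP genes (red) and for further pathway genes chosen by rule (blue), with bars of 1 SE (edgeR). BMP4, SMAD6, ID1 and NOG lie furthest to the left, between -3.46 and -2.65. ACVR1, BMP2, GDF7, BAMBI, SMURF1 and HEY1 lie between 1.35 and 1.89.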

How the data were processed

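Messenger RNA libraries were made from 1.4 µg of total RNA per sample, per the labels' protocols. The authors deposited raw counts, which the values show to be whole numbers with a different total in each library. No source used here gives the aligner, the counter or the annotation. GRCm38 and mm10, mouse builds, are named in the submitters' processing notes, whereas all 20263 row identifiers are human Ensembl genes. Symbols matched 20148 identifiers, and the other 115 rows (0.102% of counts) stayed in the tests. Coordinates and exon lengths are from GENCODE 29 (GRCh38) by identifier, and promoters from RefSeq. A second deposited table holds identical DMSO counts (40526 of 40526 values), and 2 further per-sample columns, which no label matches, were not used.

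Groups came from the sample titles. The test was edgeR 4.0.16 in R 4.3.3: filterByExpr, TMM, the quasi-likelihood F-test for treated against control libraries with no covariate, and Benjamini-Hochberg adjustment over 13816 genes with a threshold of 0.05. SE is the log2 fold change divided by the square root of F. CPM is TMM-scaled unless stated, and 1 count equals 0.0249 to 0.0288 CPM before scaling. The fits were tested on simulated data with the same dispersion in both groups. The wider spread of the YW-LF pair was not simulated. Replicates of a group differed by more than sampling noise (chi-square divided by its degrees of freedom 246 for DMSO and 570 for YW-LF), so none was a copy.

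Alternatives were DESeq2 1.42.0, limma-voom (limma 3.58.1), robust edgeR, other scalings and count filters, removal of the 13 mitochondrially encoded genes, a replicate block from the sample numbers, and each library left out. The 10 genes and the lists were chosen with earlier results of these data known. Named were all 10 genes, SMAD4, SMAD7, SMAD9, the E proteins, in each list the 3 genes of lowest p at a mean of 1 CPM or more, the 3 genes nearest to ID1, MKI67 and CDKN1A.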

Additional observations from a re-analysis of the deposited data

How the results depend on the processing

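The count of genes called in edgeR, 0 with all libraries, was 1437 in DESeq2 (816 higher, 621 lower), 275 without a count filter (155 higher, 120 lower) and 331 under a replicate block (186 higher, 145 lower); it was 64 to 5882 when 1 library was left out (5882 and 2903 without the first or second YW-LF library, 74 and 64 without the first or second DMSO library). The count at an unadjusted p under 0.05, 2830 (1585 higher, 1245 lower), was 1489 higher and 755 lower with library size only, and 992 to 7265 in all when 1 library was left out. Of the 10 ID and BMP genes, 2 were called in DESeq2, 1 with the replicate block, and 0 to 6 when 1 library was left out. The block called BMP4 (adjusted p 0.0456 in edgeR) and not ID1 (0.0513), and of the other named genes NOG (0.0325); the replicate numbers share no batch in the labels, and deviations of same-numbered libraries correlated at 0.037 over 13816 genes, so they were not taken as pairs. ID3 turned negative in limma-voom (-0.10), with the replicate block (-0.17), without DMSO replicate 2 (-0.023) and when YW-LF replicate 1 was left out (-1.13), and ranged up to 0.73 with another library left out. SMAD7 turned positive with library size only (0.26), without DMSO replicate 2 (0.38) and when YW-LF replicate 2 was left out (0.72), and ranged down to -2.02. The causes of these changes were not tested. Of 415 single-gene values over 30 genes and 14 settings, 363 kept their direction and side of the threshold, 45 passed it and 7 turned sign. Over the 10 settings that kept all libraries, the log2 fold change was -3.66 to -3.12 for BMP4 and -2.76 to -2.39 for ID1, and -2.95 to -2.68 for SMAD6 over 9 of them, since SMAD6, ID2 and ID4 were not tested at 10 counts in all libraries. Their adjusted p ranged from 0.000107 to 0.185, from 0.000937 to 0.217 and from 0.0512 to 0.245. ID2, ID4 and SMAD6 had at most 21, 30 and 79 counts in a library, and whether these low counts had a part in their results was not tested.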
